A study of Mus musculus with 6 samples.

Results

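The integrin genes and the genes of the focal adhesion plaque were compared between wild-type 3T3-L1 cells and 3T3-L1 cells with a knockout of Ube3d. The 46 genes were chosen by name: all 18 integrin alpha and all 8 integrin beta genes of the count table, and 20 genes whose products sit on the cytoplasmic side of the adhesion. They are 46 of the 24421 genes listed. 3T3-L1 is an embryonic fibroblast line of the mouse that serves as a preadipocyte model, and here it was undifferentiated and growing. Ribosomal RNA was removed from total RNA, stranded libraries were made, and 3 libraries were sequenced per genotype. Wild type and Ube3d-KO were the 2 groups, with no treatment in either. Ube3d encodes a ubiquitin ligase. The labels call the samples biological replicates, but they do not say how separate the cultures were, how the gene was disrupted or whether the knockout cells were 1 clone (not given in the sources used here). All p-values therefore measure only the spread between these libraries. In bulk RNA, fewer cells of a type and less RNA per cell cannot be told apart.

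Integrins are receptors that span the plasma membrane as a pair of 1 alpha and 1 beta subunit and bind proteins of the extracellular matrix. On the inside, talin and kindlin bind the beta tail and switch the receptor on, vinculin ties talin to actin, and a plaque of adaptors and kinases, among them paxillin, zyxin, tensins, FAK and SRC, carries signals inward. In fibroblasts these plaques, the focal adhesions, hold the cell to its substrate and end the actin stress fibres.

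Library totals ran from 23767181 to 29389480 counts. The knocked-out gene, listed under its older symbol Ube2cbp, had 56, 43 and 53 counts in the knockout libraries and 145, 229 and 173 in wild type, so reads remained, at a lower level. Counts of the ribosomal precursor gene Rn45s took 9.68 to 10.2% of the knockout libraries and 7.28 to 8.91% of the wild-type libraries. Of the fibroblast markers, 8 were tested, 6 were lower and 1 higher, and Vim was not called; their summed level was 9398 ± 71 CPM (counts scaled to the library total) in the knockout and 11423 ± 42 in wild type (SD, n = 3, as throughout). Divided by exon length the same markers summed to 6963 ± 15 CPM per kb in the knockout and 6659 ± 191 in wild type, the opposite order. Leukocyte markers summed to 17.3 to 17.5 CPM in the knockout and 16.5 to 17.7 in wild type, and per kb to 10.6 to 11.6 and 9.61 to 10.4, without overlap. Of 6 tested leukocyte markers, Cd68 and Fcer1g were higher (log2 0.71 and 2.54), Lyz2 was lower (-1.55) and 3 were not called, and Adgre1 and Tyrobp were at 0 in every library. Epithelial markers summed to at most 0.698 CPM in any library, and Epcam and Krt18 were at 0. Endothelial markers summed to 1.46 to 2.43 CPM in the knockout and 0.589 to 1.08 in wild type, and Vwf, the 1 tested, was higher (log2 2.13). Mature adipocyte markers summed to 1.07 ± 0.18 CPM in the knockout and 3.62 ± 0.25 in wild type, with the 1 tested, Fabp4, lower (-1.83) and Lep and Retn at 0. The part of any of these markers in the members' changes was not tested.

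Over the whole set many members differed between knockout and wild type, without a common direction. Of 46 members, 37 had enough counts to be tested, 13 of these rose in the knockout, 13 fell and 11 gave no call. Called means an adjusted p under 0.05 in edgeR's quasi-likelihood test. The called members were 70.3% of those tested, beside 61.4% of all tested genes. Higher calls and lower calls were each 35.1% of tested members, beside 30.3% and 31.2% of all tested genes. The median log2 change was -0.01 over the members and 0.004 over all tested genes. Changes of at least 0.58 on the log2 scale, about 1.5-fold, were found in 10 members, 27.0% of those tested, beside 15.9% of all tested genes. The 3 knockout and 3 wild-type CPM values did not overlap for 27 tested members (73.0%), beside 63.8% of all tested genes.

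Calls among the receptors were mostly higher and calls in the plaque mostly lower. Of all tested genes, 30.3% were higher and 31.2% lower. Of 18 tested integrins, 11 were higher and 2 lower, with a median log2 change of 0.42. Of 19 tested intracellular members, 2 rose, 11 fell and 6 gave no call, with a median of -0.16. Both medians are descriptions, and the difference between the 2 sets was not tested. Of the 11 higher integrins, 7 were under 10 CPM in every library. The alpha genes held most of the integrin calls, with 75% of 12 tested higher and 8.33% lower. Of the 6 tested beta genes, 33.3% were higher, near the share of all genes, and 16.7% were lower.

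**Figure D1:**
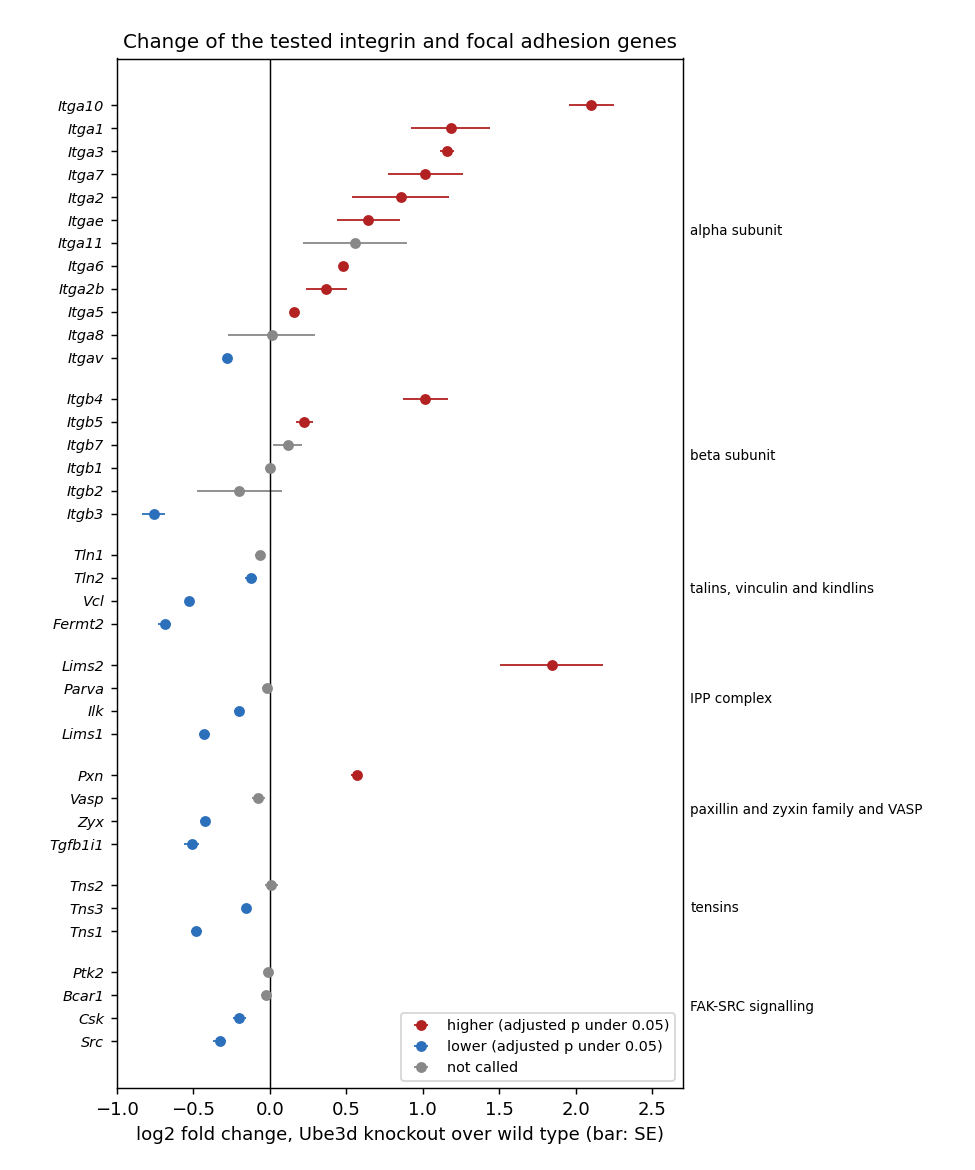
Log2 fold change of Ube3d knockout over wild type (x axis) with its SE (bars) for the 37 tested members (y axis), ordered by role. Colours mark members called higher, called lower and not called. The 13 higher members are 11 integrins plus Lims2 and Pxn, and the intracellular members lie mostly left of 0.

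The promoters of Vcl, Fermt2 and Itgb6 hold a CArG box, the site that serum response factor binds. Promoter sequences from RefSeq (build GRCm38.p6) were matched for 32 of the 46 members, at 39 start sites, and the 250 bases before each start were searched on both strands. The CArG box was found in 3 of the 39 member windows (7.69%) and in 1.47% of 32841 windows of all genes. The 3 windows are printed 5′ to 3′ on the gene's strand, with the CArG box in capitals. That of Vcl is chr14:20929148-20929397 on the plus strand, that of Fermt2 is chr14:45530066-45530315 on the minus strand, and that of Itgb6, from 1 of its 2 start sites, is chr2:60673694-60673943 on the minus strand.
Vcl: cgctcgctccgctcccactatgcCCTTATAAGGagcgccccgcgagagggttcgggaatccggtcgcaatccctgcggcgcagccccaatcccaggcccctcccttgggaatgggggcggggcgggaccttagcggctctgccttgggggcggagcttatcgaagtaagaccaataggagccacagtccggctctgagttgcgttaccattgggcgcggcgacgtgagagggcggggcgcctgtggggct
Fermt2: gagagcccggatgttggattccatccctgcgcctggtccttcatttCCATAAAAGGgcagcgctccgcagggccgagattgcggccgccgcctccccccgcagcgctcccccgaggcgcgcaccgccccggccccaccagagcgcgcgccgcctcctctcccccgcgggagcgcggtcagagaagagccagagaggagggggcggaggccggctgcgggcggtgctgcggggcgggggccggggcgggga
Itgb6: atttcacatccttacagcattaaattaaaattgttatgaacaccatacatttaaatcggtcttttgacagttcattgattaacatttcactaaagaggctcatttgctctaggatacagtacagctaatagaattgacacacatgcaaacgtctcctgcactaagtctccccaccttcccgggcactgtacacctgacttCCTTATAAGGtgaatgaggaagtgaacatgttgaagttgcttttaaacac

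The box began 227 bases before the start of Vcl, 204 before that of Fermt2 and 50 before that of Itgb6. Vcl and Fermt2 were both lower in the knockout, as described with the plaque genes, and Itgb6 was too low to test. The other 8 lower members searched (Itgav, Lims1, Ilk, Zyx, Tns1, Tns3, Src and Csk), the 7 higher and the 8 not called had no CArG box in their windows. None of the 3 boxes (0) overlapped a match of the other motifs searched. Those were the AP-1 site TGANTCA, in 5.13% of member windows and 6.75% of all windows, the TEAD site GGAATG, in 7.69% and 12.6%, and the SP1 site GGGCGG, in 46.2% and 32.7%. A match is only a run of letters, and binding was not measured here. Promoters of Itga6, Itga7, Itgad, Itgae, Itgal, Itgb2, Itgb3, Itgb4, Lims2, Parva, Ptk2, Pxn, Tgfb1i1 and Tln2 were not searched.

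Among the alpha subunits, which help set the ligand a receptor binds, 12 of 18 were tested. Of these, 9 were higher (75%) and 1 was lower (8.33%), beside 30.3% and 31.2% of all tested genes. Their median log2 change was 0.60. Per kilobase of exon, 4 genes held nearly all alpha RNA. Itga5, the alpha chain of the fibronectin receptor, was highest in both genotypes, at 78.6 ± 0.73 CPM per kb in the knockout and 69.9 ± 2.5 in wild type. Itgav, the alpha chain of the vitronectin receptors, followed with 55.3 ± 1.3 and 66.7 ± 1.0, Itga6, of the laminin receptors, with 45.1 ± 1.1 and 32.1 ± 0.64, and Itga3, also of laminin receptors, with 15.2 ± 0.96 and 6.76 ± 0.17. The order of these 4 was the same in both genotypes, and in wild type the Itga5 and Itgav libraries overlapped.

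Itga5 (chromosome 15, 103344286 to 103366748, minus strand) had 342, 341 and 347 CPM in the knockout libraries and 307, 315 and 293 in wild type. All knockout values were above all wild-type values, and the rise was small, 1.12-fold (log2 0.16, SE 0.03, edgeR adjusted p = 4.51e-06). Itgav (chromosome 2, 83724397 to 83806917, plus strand) had 400, 387 and 383 CPM in the knockout and 462, 473 and 477 in wild type. It was the only alpha gene of the 12 tested that fell, 1.21-fold (log2 -0.28, SE 0.03, adjusted p = 2.97e-13). Itga6 (chromosome 2, 71786939 to 71858427, plus strand) rose on the same chromosome, from 190, 198 and 193 to 280, 267 and 268 CPM. The groups were far apart relative to their spread, at 1.39-fold (log2 0.48, SE 0.03, adjusted p = 2.73e-23).

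Itga3 was the abundant alpha gene with the largest rise. Its values were 74.2, 83.9 and 81.8 CPM in the knockout and 36.2, 35.9 and 34.6 in wild type, so that the lowest knockout library was above the highest wild-type library by far more than the spread. The rise was 2.23-fold (log2 1.16, SE 0.05, edgeR adjusted p = 7.23e-34). Itga3 lies on chromosome 11, 95044475 to 95076811, minus strand. Itga7, the third laminin-binding alpha chain and best known from muscle, had 1.94, 1.76 and 1.89 CPM in the knockout and 1.05, 1.05 and 0.633 in wild type. It rose 2.02-fold without overlap (SE 0.25 on the log2 scale, adjusted p = 0.000278), from 17 to 31 counts per library to 48 to 53. The 2 tested skeletal muscle markers fell, and the list had summed levels of 0.435 to 1.03 CPM in the knockout and 1.89 to 2.82 in wild type.

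The collagen-binding alpha genes were scarce and 3 of the 4 were called, all higher, beside 30.3% of all tested genes called higher. Itga10, best known from cartilage, had the largest change of any member. It had 6.81, 8.41 and 7.31 CPM in the knockout and 1.68, 1.80 and 1.71 in wild type, which is 172, 229 and 205 counts against 40, 53 and 46. No knockout library came near the wild-type range, and the rise was 4.29-fold (log2 2.10, SE 0.15, edgeR adjusted p = 6.64e-21). Itga10 lies on chromosome 3, 96645584 to 96664519, plus strand.

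Itga1 and Itga2, collagen receptors that lie side by side on the minus strand of chromosome 13, were lower still. Itga1 had 1.70, 1.51 and 2.10 CPM in the knockout and 0.673, 0.851 and 0.782 in wild type. The ranges did not overlap, at 2.27-fold (log2 1.18, SE 0.26, edgeR adjusted p = 6.08e-05). Itga2 had 1.03, 0.845 and 1.14 CPM against 0.631, 0.646 and 0.372, from 23 to 32 and 10 to 19 counts. It rose 1.81-fold (log2 0.86, SE 0.32, adjusted p = 0.0159), but the call was lost with DESeq2 (adjusted p = 0.0601), without knockout replicate 3 (0.0790) and without wild-type replicate 3 (0.111). Itga11, the fourth collagen receptor, had 0.792, 0.808 and 0.785 CPM in the knockout and 0.463, 0.783 and 0.335 in wild type and was not called (log2 0.56, adjusted p = 0.148). Without wild-type replicate 2, the highest of its group, it passed the threshold (adjusted p = 0.0364).

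Of the remaining alpha genes, Itgae, which pairs with Itgb7 on lymphocytes in epithelia, had 3.05, 2.87 and 1.89 CPM in the knockout and 1.26, 2.04 and 1.56 in wild type. Its ranges overlapped at knockout replicate 3, and it was called higher at 1.56-fold (log2 0.65, SE 0.20, edgeR adjusted p = 0.00491). That call was lost without knockout replicate 1 (adjusted p = 0.0516). Itga2b, the platelet fibrinogen receptor chain, was 1.29-fold higher (4.90 ± 0.30 against 3.77 ± 0.24 CPM, adjusted p = 0.0146), a call lost without knockout replicate 2 (0.0728) or wild-type replicate 3 (0.0606). Itga8 was near 0.99 CPM in both genotypes and was not called (log2 0.01, SE 0.28).

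**Figure D2:**
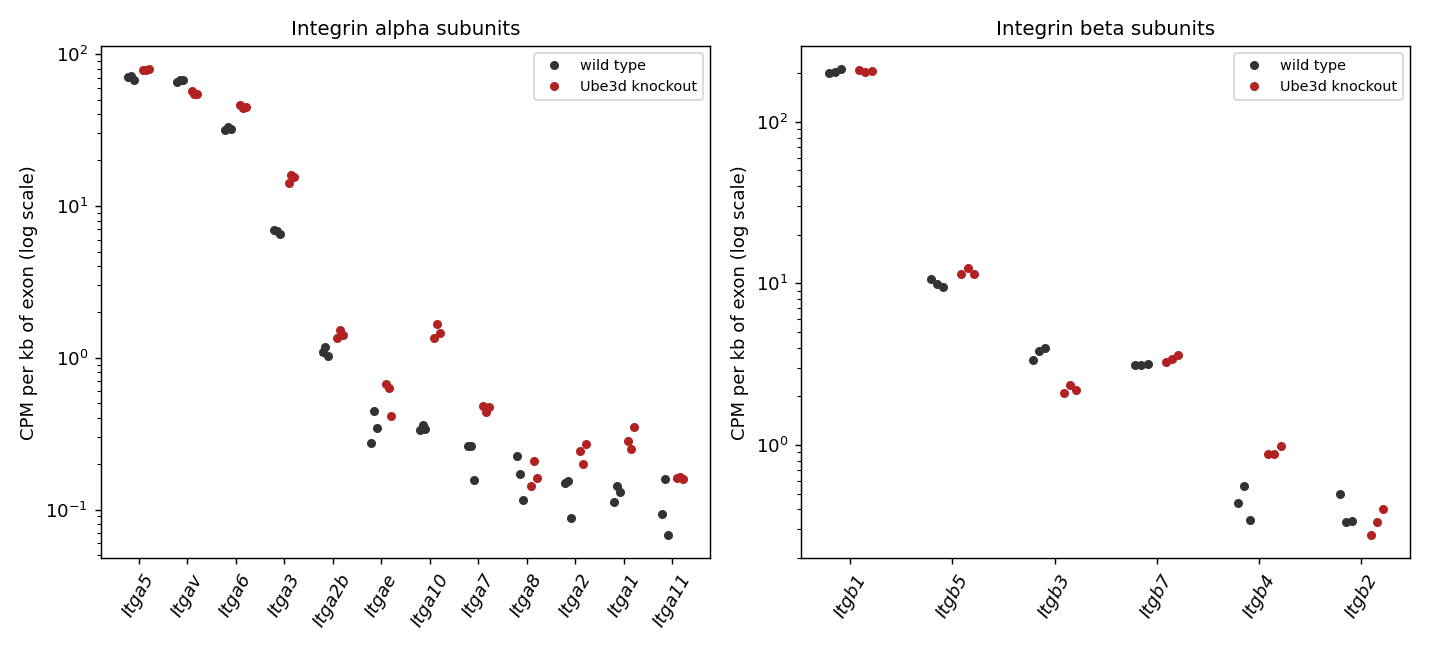
Level per library in CPM per kb of exon (log y axis) of the 12 tested alpha genes (left) and 6 tested beta genes (right), with wild type in black and knockout in red. Itga5, Itgav, Itga6 and Itga3 stand above the other alpha genes in all libraries, and Itgb1 stands above all other beta genes.

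As a share of summed alpha RNA per kb, Itgav was smaller and the laminin receptor genes were larger in every knockout library. The Itgav share was 27.8% ± 0.48 in the knockout and 37.5% ± 0.88 in wild type, that of Itga6 22.7% ± 0.44 and 18.1% ± 0.18, and that of Itga3 7.63% ± 0.52 and 3.80% ± 0.08. None of these 3 pairs of groups overlapped, and each gave p = 0.1 in a two-sided exact permutation test, the smallest p that 3 against 3 libraries allow (0.2 after Benjamini-Hochberg adjustment over 26 shares). The Itga5 share was 39.5% ± 0.46 and 39.2% ± 0.86 (exact p = 0.8). Grouped by ligand, Itga3, Itga6 and Itga7 together made up 30.5% ± 0.10 of alpha RNA per kb in the knockout and 22.0% ± 0.08 in wild type, a difference of 8.56 percentage points. Itga5, Itgav, Itga8 and Itga2b, whose receptors bind the RGD motif of matrix proteins, made up 68.1% ± 0.18 and 77.4% ± 0.11. The collagen receptors Itga1, Itga2, Itga10 and Itga11 made up 1.10% ± 0.07 and 0.398% ± 0.05. The grouping by ligand was set after the values were seen and is given without a test.

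In CPM per kb, rather than as shares of alpha RNA, the RGD group was near level and the laminin group was not. The summed RGD level was 135.5 ± 1.0 CPM per kb in the knockout and 137.8 ± 2.4 in wild type, with Itga5 higher and Itgav lower within it. The laminin group summed to 60.8 ± 0.26 and 39.1 ± 0.70 CPM per kb. The collagen group summed to 2.19 ± 0.13 and 0.709 ± 0.09.

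**Figure D3:**
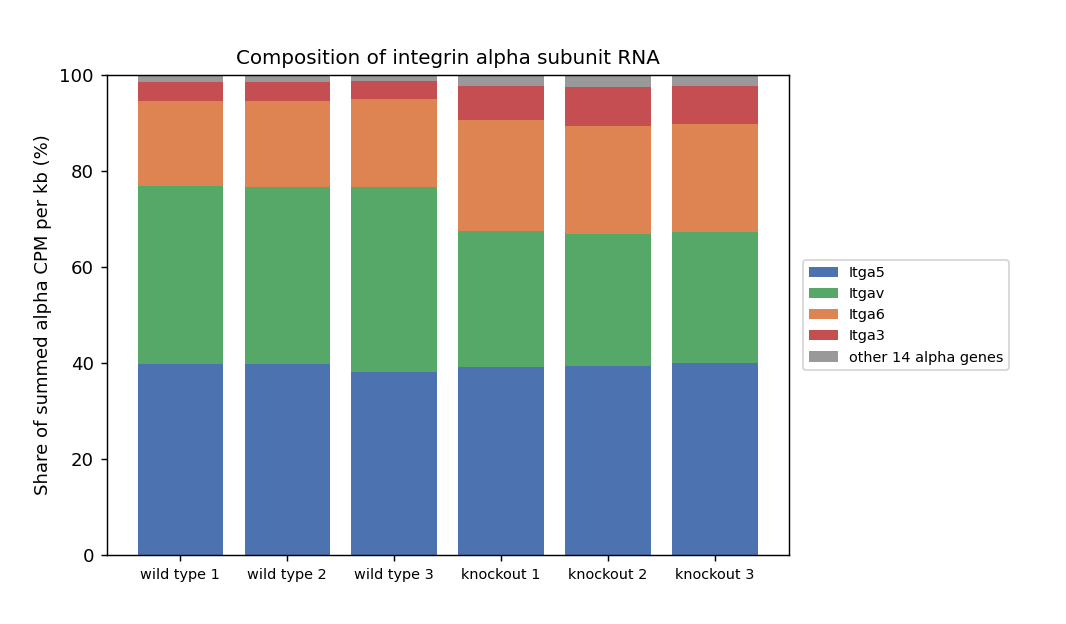
Share of the summed alpha level in CPM per kb (y axis, %) taken by each of the 4 abundant genes and by the other 14 alpha genes, in each wild-type and knockout library (x axis). The Itgav segment shrinks from 37.5% to 27.8% and the Itga6 and Itga3 segments grow, while that of Itga5 stays near 39%.

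The beta subunits, which bind talin and kindlin and limit which pairs can form, were dominated by Itgb1. Of 8 beta genes, 6 were tested. Of these, 2 were higher (33.3%) and 1 was lower (16.7%), beside 30.3% and 31.2% of all tested genes. Itgb1 (chromosome 8, 128685654 to 128733579, plus strand) had 873, 856 and 867 CPM in the knockout and 843, 848 and 888 in wild type. The ranges overlapped and no change was called (log2 -0.001, SE 0.03, edgeR adjusted p = 0.968). Its share of beta RNA per kb was 91.7% ± 0.39 in the knockout and 92.0% ± 0.35 in wild type (exact permutation p = 0.4). Summed alpha RNA was 199 ± 1.1 CPM per kb in the knockout and 178 ± 3.2 in wild type, and summed beta RNA 225 ± 1.4 and 223 ± 5.6, so that the ratio of alpha to beta was 0.885 ± 0.004 and 0.799 ± 0.03.

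Itgb3, the beta chain of the vitronectin and platelet fibrinogen receptors, had the largest fall of any member. It had 12.2, 13.6 and 12.7 CPM in the knockout and 19.5, 22.1 and 23.1 in wild type. The groups were well apart, at 1.69-fold lower (log2 -0.76, SE 0.07, edgeR adjusted p = 1.55e-14). Itgb3 lies on chromosome 11, 104608000 to 104670471, plus strand. Itgb5, which also pairs with Itgav, rose 1.17-fold, from 32.8 ± 1.8 to 38.6 ± 1.9 CPM (adjusted p = 0.000218). The ratio of Itgb3 to Itgb5 per kb was accordingly 0.189 ± 0.004 in the knockout and 0.375 ± 0.05 in wild type.

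Itgb4, which pairs with Itga6 in the hemidesmosomes of epithelia, had 5.38, 5.44 and 6.10 CPM in the knockout and 2.69, 3.44 and 2.12 in wild type. All 3 knockout values were above the wild-type range, at 2.03-fold (log2 1.02, SE 0.15, edgeR adjusted p = 8.23e-09). Epithelial markers were near 0 in both genotypes, as given above. The 3′ end of Itgb4 (chromosome 11, 115974725 to 116008411) shares 55 exon bases with Galk1 on the other strand, and Galk1 was at 42.4 ± 1.4 CPM in the knockout and 49.4 ± 2.3 in wild type. Itgb7 (9.16 ± 0.44 and 8.41 ± 0.04 CPM) and the leukocyte chain Itgb2 (0.963 ± 0.17 and 1.12 ± 0.27) were not called (adjusted p = 0.296 and 0.547).

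Too low to test were 8 integrin genes: Itgb6 and Itgb8, which activate latent TGF-beta, the leukocyte chains Itgal, Itgam, Itgax and Itgad, and Itga4 and Itga9. The highest value of any library among them was 0.335 CPM, for Itgb8, with 4 to 7 counts per knockout library and 7 to 9 per wild-type library. Itga4 had 0 counts in all 6 libraries. A count of 0 allows up to 3 counts per library, which is 0.102 to 0.126 CPM at these depths and covers counting error only. In the intracellular set, Fermt1, the kindlin of epithelia, was likewise at 0 in every library.

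The genes of the proteins that bind the beta tail and link it to actin were lower or not called. Vcl, vinculin, had 325, 323 and 330 CPM in the knockout and 463, 459 and 476 in wild type. The gap between the groups was many times their spread, at 1.44-fold lower (log2 -0.53, SE 0.03, edgeR adjusted p = 1.29e-25). Vcl was also the highest of this group per length in wild type, at 89.1 ± 1.6 CPM per kb, and in the knockout, at 62.3 ± 0.72, it was level within its spread with Tln1 (60.7 ± 2.5). Fermt2, the kindlin of fibroblasts, had 50.2, 52.2 and 52.3 CPM in the knockout and 83.4, 81.4 and 82.8 in wild type. Again the groups did not overlap, at 1.61-fold lower (log2 -0.69, SE 0.04, adjusted p = 4.19e-24). Vcl and Fermt2 both lie on chromosome 14, the first at 20929433 to 21033673 and the second at 45458792 to 45530065. The median log2 change of the 413 tested genes there was -0.11, with 44.3% lower and 17.4% higher. Of these genes, 7.26% had a lower log2 change than Vcl and 4.12% a lower one than Fermt2. The part of this chromosome's shift in the 2 falls was not tested.

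Tln1, the main talin of fibroblasts, had 521, 498 and 540 CPM in the knockout and 539, 549 and 531 in wild type. The ranges overlapped and the gene was not called (log2 -0.06, SE 0.03, edgeR adjusted p = 0.0543). It lay close to the threshold, and it passed in limma-voom (0.0372), with no filter on low counts (0.0223), and without knockout replicate 3 (0.0132) or wild-type replicate 3 (0.0226), with a change of at most -0.10 on the log2 scale in each. Tln2, the second talin, was 1.09-fold lower (70.8 ± 1.7 against 76.7 ± 2.7 CPM, adjusted p = 0.00587), a call lost without wild-type replicate 1 (0.0644).

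In the complex of ILK, PINCH and parvin, which joins kindlin-bound integrins to actin, the PINCH genes went opposite ways. Lims1, the abundant PINCH gene, had 94.7, 92.6 and 89.6 CPM in the knockout and 123, 121 and 126 in wild type, a 1.35-fold fall (log2 -0.43, SE 0.04, edgeR adjusted p = 2.01e-17). Lims2 had 1.07, 1.07 and 1.53 CPM in the knockout and 0.252, 0.442 and 0.298 in wild type, from 27, 29 and 43 counts against 6, 13 and 8. It rose 3.59-fold without overlap (log2 1.84, SE 0.34, adjusted p = 2.89e-06), but per kb it reached only 0.039 ± 0.01 of the Lims1 level in the knockout and 0.00789 ± 0.003 in wild type. Lims2 shares 188 exon bases with Gpr17 on the other strand, and Gpr17 had 44 counts over the knockout libraries and 9 over wild type, too few to test. How far reads of Gpr17 were counted for Lims2 was not tested, since the strand setting used in counting was not stated.

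Parva, alpha-parvin, was the highest of this complex per length and was not called. It had 297, 294 and 300 CPM in the knockout and 294, 303 and 300 in wild type (log2 -0.02, SE 0.03, edgeR adjusted p = 0.58). The ranges overlapped. Ilk, the scaffold of the complex, fell 1.15-fold, from 106 ± 2.7 to 93.1 ± 1.3 CPM (edgeR adjusted p = 1.24e-06). Ilk shares 137 exon bases with Rrp8 and 32 with Taf10 on the other strand. Rrp8 was at 62.4 ± 1.7 CPM in the knockout and 67.1 ± 1.9 in wild type. It was called lower (log2 -0.11, edgeR adjusted p = 0.0152). Taf10 was at 41.1 ± 1.1 and 41.8 ± 2.6 CPM and was not called. How far reads of these genes were counted for Ilk was not tested.

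Paxillin and its relative Hic-5 also went opposite ways. Pxn, paxillin, had 95.3, 98.5 and 97.9 CPM in the knockout and 66.3, 65.3 and 63.9 in wild type. It rose 1.48-fold without overlap (log2 0.57, SE 0.04, edgeR adjusted p = 2.00e-21), as 1 of only 2 intracellular members called higher. Tgfb1i1, which encodes the paxillin relative Hic-5, had 38.9, 41.1 and 39.9 CPM in the knockout and 54.7, 60.2 and 54.9 in wild type and fell 1.43-fold (log2 -0.51, SE 0.05, adjusted p = 1.79e-15). Per kb, paxillin RNA was 2.49 ± 0.03 times that of Hic-5 in the knockout and 1.18 ± 0.07 times in wild type.

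Zyx, zyxin, which gathers at stress fibres under tension, had 241, 248 and 256 CPM in the knockout and 337, 336 and 321 in wild type. It was the highest of the adaptor group per length and fell 1.34-fold without overlap (log2 -0.43, SE 0.03, edgeR adjusted p = 3.14e-20). Its 3′ end shares 236 exon bases with Epha1 on the other strand, which was at 8.02 ± 0.16 CPM in the knockout and 6.29 ± 0.48 in wild type. Vasp, the actin polymerisation factor that zyxin recruits, was not called (62.3 ± 1.3 and 65.3 ± 3.0 CPM, adjusted p = 0.119).

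**Figure D4:**
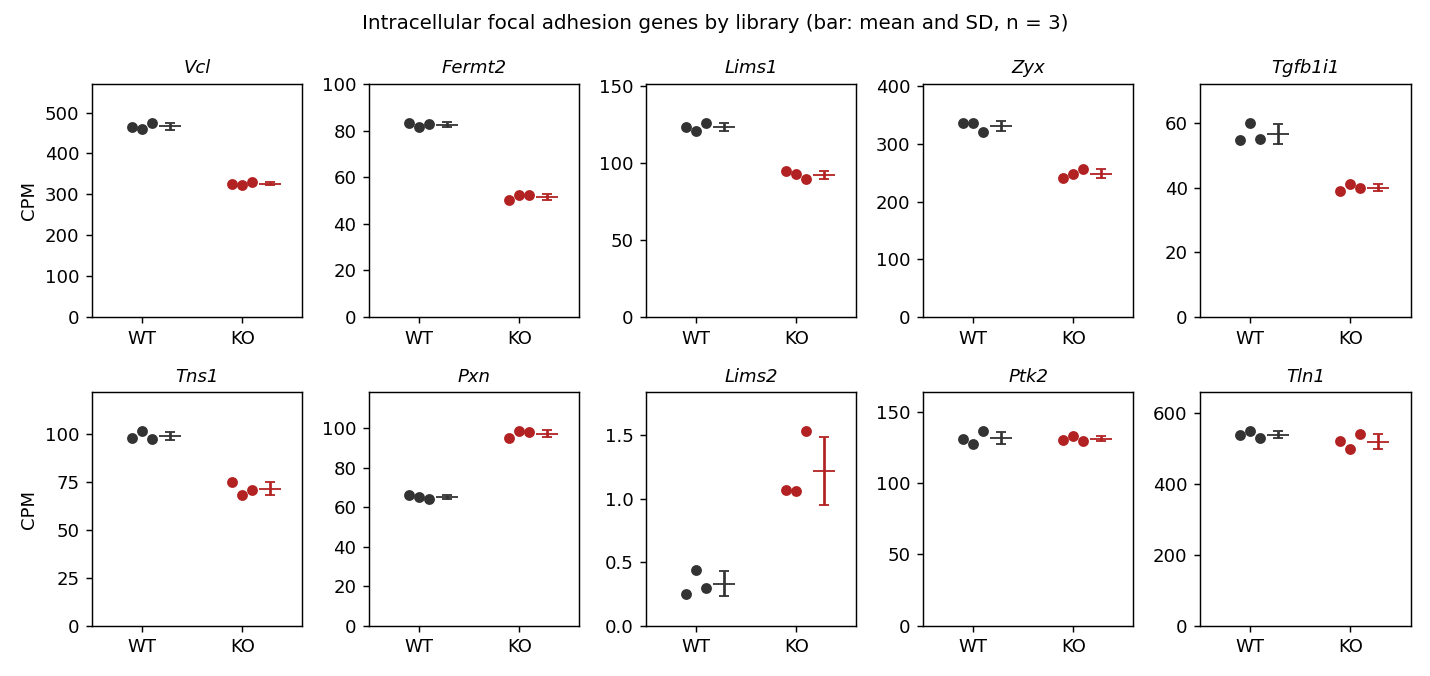
Level in CPM (y axes, each from 0) of 10 intracellular members in the wild-type (black) and knockout (red) libraries, with mean and SD (n = 3 per genotype). Vcl, Fermt2, Lims1, Zyx, Tgfb1i1 and Tns1 were lower in every knockout library, Pxn and Lims2 were higher, and Ptk2 and Tln1 overlapped.

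The tensins, which bind beta tails in the long fibrillar adhesions, were lower for 2 of 3 genes, beside 31.2% of all tested genes. Tns3, the highest per length, had 284, 282 and 279 CPM in the knockout and 311, 313 and 310 in wild type. The fall was small against a very narrow spread, at 1.11-fold (log2 -0.16, SE 0.03, edgeR adjusted p = 5.00e-06). Tns1 fell 1.40-fold, from 98.9 ± 2.2 to 71.4 ± 3.4 CPM (adjusted p = 4.47e-18). Tns2 was not called (65.1 ± 1.7 and 64.2 ± 3.3 CPM, adjusted p = 0.844).

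Of the FAK and SRC signalling genes, Src and Csk were lower and Ptk2 and Bcar1 were not called. Ptk2, which encodes FAK, had 131, 133 and 130 CPM in the knockout and 131, 128 and 136 in wild type. The knockout values lay inside the wild-type range (log2 -0.01, SE 0.03, edgeR adjusted p = 0.725). Bcar1, the p130Cas scaffold that FAK and SRC phosphorylate, was the highest of this group per length, with 115, 120 and 122 CPM against 117, 125 and 119, and overlapped as well (adjusted p = 0.542). Src was 1.26-fold lower (52.5 ± 1.5 against 65.5 ± 1.6 CPM, adjusted p = 8.20e-10), and Csk, the kinase that switches SRC off, was 1.15-fold lower (55.9 ± 1.0 against 63.8 ± 0.55 CPM, adjusted p = 3.08e-05).

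Summed per role in CPM per kb, every intracellular group was lower in the knockout. Talins, vinculin and kindlins summed to 145 ± 3.2 in the knockout and 184 ± 0.75 in wild type, paxillin, zyxin, Hic-5 and VASP to 126 ± 2.2 and 144 ± 4.0, and the ILK complex to 136 ± 0.46 and 149 ± 1.6. The tensins summed to 58.6 ± 0.44 and 65.2 ± 1.1, and FAK, SRC, CSK and p130Cas to 93.0 ± 1.5 and 99.1 ± 0.82. These sums were not tested.

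The median change differed between chromosomes, and 10 members lie on the 4 chromosomes with the largest shifts. The median log2 change of all tested genes was -0.24 on chromosome 2, 0.30 on chromosome 3 and 0.19 on chromosomes 5 and 12. Chromosome 2 carries Itga4, Itga6, Itga8, Itgav, Itgb6, Fermt1 and Src, chromosome 3 carries Itga10, chromosome 5 Pxn and chromosome 12 Itgb8. Itgav (-0.28) lay near the chromosome 2 median, with 45.3% of the 1024 tested genes there lower than it, and Src (-0.33) had 39.3% below it. Itga6 (0.48) went against its chromosome, above 91.6% of the genes there. Itga10 lay above 98.4% of 643 tested genes on chromosome 3, and Pxn above 85.0% of 804 on chromosome 5. The part of the chromosome shift in these members' changes was not tested. Among the 31 tested members on other chromosomes, 10 were higher and 11 lower, beside 28.1% and 29.3% of the 10029 tested genes there.

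**Figure D5:**
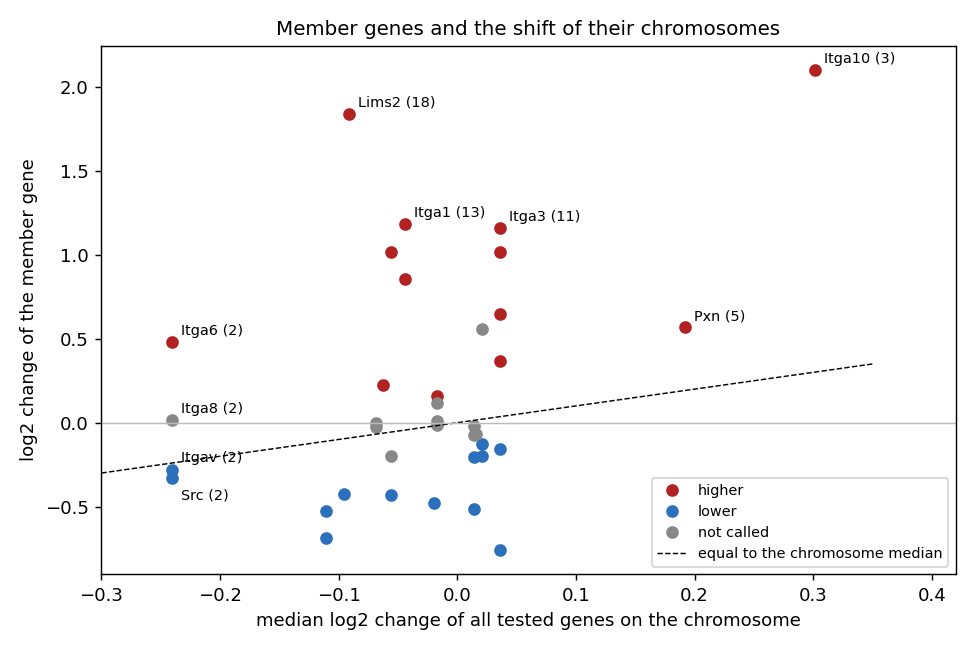
Log2 change of each tested member (y axis) against the median log2 change of all tested genes on its chromosome (x axis), with chromosome numbers in brackets for some members and a dashed line where the 2 are equal. Itgav and Src lie near the line at a chromosome median of -0.24, and Itga6, Itga3, Itga1, Lims2, Itga10 and Pxn lie above it.

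Wider lists of adhesion genes were read beside the shares of all tested genes called, 30.3% higher and 31.2% lower. Of 23 tested actin linkers and LIM proteins of adhesions, 14 were lower (60.9%) and 6 higher (26.1%), with a median log2 change of -0.26. Of these, the LIM and SH3 protein Lasp1 fell from 260 ± 3.2 to 165 ± 3.3 CPM (log2 -0.66), palladin, Palld, from 152 ± 0.28 to 100 ± 1.1 (-0.61) and Pdlim5 from 150 ± 1.6 to 99.6 ± 1.8 (-0.60). Each had an edgeR adjusted p of at most 3.48e-26, and none of their groups overlapped. Pdlim5 lies on chromosome 3, where the median was 0.30.

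Of 18 tested integrin activation and trafficking genes, 6 were higher (33.3%, near the share of all genes) and 3 lower (16.7%), with a median log2 change of 0.05. Apbb1ip, the RAP1 effector RIAM that brings talin to integrins, fell from 73.1 ± 1.8 to 52.0 ± 1.4 CPM (log2 -0.50), and it lies on chromosome 2. Kank1, a talin-binding protein of the adhesion rim, fell to 1 to 3 counts per knockout library, from 15 to 36 in wild type (edgeR adjusted p = 4.17e-08). The trafficking genes Arf6 and Dab2 rose by 0.21 and 0.15 on the log2 scale. Arf6 lies on chromosome 12, where the median was 0.19, so that its change was near that of its chromosome.

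Of 12 tested surface partners of integrins, 3 were higher (25%) and 5 lower (41.7%), with a median of -0.07. Cav1, caveolin, fell from 817 ± 9.9 to 469 ± 5.7 CPM (log2 -0.81), and Sdc4, the syndecan of focal adhesions, from 275 ± 5.8 to 181 ± 7.8 (-0.61). Mfge8, a secreted RGD protein that Itgav receptors bind, rose from 101 ± 3.2 to 187 ± 5.7 CPM (0.87), and Plaur, the urokinase receptor, from 51.2 ± 1.6 to 80.5 ± 2.0 (0.64). Sdc4 lies on chromosome 2, and off the 4 shifted chromosomes 3 of 10 tested genes of the list were lower, beside 29.3% of all genes there. Of 18 tested matrix ligands, 5 were higher (27.8%, near the share of all genes) and 8 lower (44.4%), with a median of -0.18. Postn, periostin, fell from 16.3 ± 0.30 to 0.606 ± 0.09 CPM (log2 -4.75) and Nid2, nidogen 2, from 4.36 ± 0.16 to 0.385 ± 0.31 (-3.50). Tnc, tenascin C, rose from 268 ± 9.2 to 392 ± 5.0 CPM (0.54) and Spp1, osteopontin, from 389 ± 16 to 668 ± 7.5 (0.77). Postn lies on chromosome 3 and Spp1 on chromosome 5, and off the shifted chromosomes 3 of 13 tested ligands were higher, beside 28.1% of all genes there. All 8 genes were called with edgeR and had groups that did not overlap.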

How the data were processed

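RNA was measured in 6 libraries of 3T3-L1 cells, 3 per genotype, with groups and replicate numbers from the sample titles. Raw counts of reads per gene were deposited by the authors with symbol, exon coordinates and strand, per the file headers. STAR 2.6.1d, featureCounts 1.6.3 and the mouse build GRCm38 (mm10) are named in the submitters' processing notes. The strand setting and the handling of multi-mapping reads: not given in the sources used here. A second deposited table, of regions downstream of genes, carries no gene names and was not used.

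Genotypes were compared in R 4.3.3 by edgeR 4.0.16: quasi-likelihood F test with robust fitting, TMM scaling, filterByExpr (minimum count 10, total 15), genotype as the only term. Two-sided P-values received Benjamini-Hochberg adjustment over all 12947 tested genes, and the SE was taken as the log2 change over the root of F. CPM values are counts scaled to the library total, and CPM per kb divides by the exon length in the table. Shares of single subunits were compared by a two-sided exact permutation test. The steps were checked on simulated counts. Same-genotype libraries differed by more than counting noise (chi-square per gene 2.02 to 6.21), so none was counted as a duplicate. Library totals of 23767181 counts or more leave the spread between libraries, about 3.02% for a typical gene, as the main error of abundant genes.

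Alternatives were RLE factors, no count filter, 1 CPM in 3 libraries, DESeq2 1.42.0, limma-voom (limma 3.58.1), the replicate number as a block, leaving out Rn45s, the 4 shifted chromosomes or each library, and, for shares, no division by length. Per-library values are given for called members with a log2 change of at least 0.58, the highest member per length in each role, and Ptk2, Itgb1 and Tln1, with the genes of smallest adjusted p from each wider list, at most 4, less some items that are not reported here. Other values shown per library were chosen after they were seen. The members and lists were chosen with earlier results of these data known. Tables, promoters and plots used matplotlib 3.10.9, NumPy 2.4.6 and pandas 2.3.3 in Python 3.11.15.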

Additional observations from a re-analysis of the deposited data

How the results depend on the processing

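The number of members called higher ran from 10 to 14 and lower from 11 to 15 over all alternatives, and leaving out 1 library gave 11 to 14 higher and 12 to 15 lower. With the replicate number as a block, 13 were higher and 13 lower, and no named gene changed its call. Same-numbered libraries did not deviate together (r = -0.0291, -0.0328 and -0.0318), so the numbers were not taken as pairs. Without division by length the laminin-binding share differed by 9.30 percentage points instead of 8.56, and the Itga5, Itga6, Itgav and Itgb3 shares by 0.969, 5.50, -11.1 and -0.949. Leaving out 1 library never turned the direction of a called member. The calls that 1 library or tool decided (Itgae, Itga2b, Itga2, Tln2, and Itga11, Tln1 and Vasp in the other direction) are given with those genes; Vasp passed only without wild-type replicate 3 (adjusted p = 0.0346). Depth limits Itga1, Itga2, Itga7, Itga8, Itga11, Itgb2 and Lims2, which rest on 6 to 59 counts per library.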
